A study of Mus musculus with 12 samples.

Results

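The genes described here are 41 genes of glucose metabolism and the response to low oxygen, taken from a list of gene symbols and read from the 22880 rows of a count table of the mouse mammary tumour line 4T1. They comprise 4 glucose and lactate transporters, 17 glycolytic enzymes, 3 regulators of glycolytic flux, 5 HIF subunits and oxygen sensors, 3 mitochondrial HIF targets and 9 other HIF targets. All 41 were found in the table and 38 passed the filter on low counts. RNA sequencing was done on 4 groups of 3 libraries. All 4 are derivatives of 4T1, a line that spreads to the lung of mice: mock cells carried the plasmid pcDNA3.1 and had normal lung metastatic activity, MYBup cells carried pcDNA3-mMyb, which encodes the transcription factor c-Myb, and had low activity, wt cells were untransfected and not passaged, with normal activity, and lung3 cells were untransfected, had been passaged through the lung 3 times and had high activity. The labels do not say whether the transfected lines or lung3 are pools or single clones, so a difference between lines and an effect of Myb or of passaging cannot be told apart.

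Glycolysis splits glucose into pyruvate in the cytosol, and tumour cells commonly turn much of that pyruvate into lactate and export it. Hypoxia-inducible factor (HIF) is a pair of proteins, an oxygen-regulated alpha subunit and the stable subunit ARNT. Prolyl hydroxylases of the EGLN family mark the alpha subunit for destruction when oxygen is present, so HIF activity is set mainly at the protein level, and HIF in turn raises many glycolytic genes. HIF proteins, metabolites and oxygen were not measured in these libraries.

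The smallest library held 8912989 counts and the largest 24745660, and levels are given in CPM, a gene's counts scaled to a fixed library size with TMM factors. Myb, the gene the plasmid carries, had 40.7 ± 1.94 CPM (SD, n = 3) in the MYBup libraries and 5.49 ± 1.19 in the mock libraries, as their labels state. Its level was 4.99 ± 0.742 CPM in the wt libraries and 2.71 ± 0.459 in those of lung3, and the table does not separate plasmid from endogenous transcript. All 8 epithelial markers passed the filter. Their summed level was between 3169 and 3481 CPM in mock, 2743 and 2842 in MYBup, 2787 and 3205 in wt and 2636 and 3058 in lung3, so every MYBup library was below every mock library. In MYBup against mock 2 of the 8, Krt7 and Cldn4, fell (median log2 fold change of the 8 -0.20), and in lung3 against wt 0 of 8 were called (median -0.094). In mock against wt 2 of the 8 rose and 4 fell (median -0.14), where 35.9% of all genes were called. In MYBup against wt 1 rose and 5 fell (median -0.52), where 38.2% of all genes were called. The 9 host leukocyte markers summed to between 8.08 and 8.32 CPM in lung3 and between 4.75 and 6.38 in wt, most of it from Cd68, while Cd3e and Adgre1 had 0 counts in every library. Of 10 lung and stromal markers the surfactant genes Sftpc, Sftpb and Sftpa1 had 0 counts, where 3 counts over the lung3 libraries would be 0.08 CPM, and Pdgfra was the only marker of the 10 to pass the filter. The 10 summed to between 37.1 and 49.3 CPM in mock and 38.8 and 48.8 in MYBup. Their sums were between 21.9 and 30.6 CPM in wt and 16.1 and 22.3 in lung3. The part of these markers in the results was not tested. In bulk RNA, fewer cells of a type and less RNA per cell cannot be told apart.

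MYBup cells had higher levels than mock cells of many of these genes, with mostly small changes. Of 38 members tested 15 rose, 1 fell and 22 did not pass. The share called was 42.1%, against 26.9% of all 11291 genes tested (14.3% higher and 12.6% lower), with a median log2 fold change of 0.18 against 0.0015 for all genes. The members were chosen with earlier results of these data known, so these shares are descriptive. The lactate dehydrogenase gene Ldhb, the aldolase gene Aldoc, Ankrd37, Pfkp and P4ha2 had the largest rises, and the hexokinase gene Hk2 was the member that fell. Only Ldhb and Aldoc changed at least 2-fold. In the comparison of lung3 with wt cells 4 of 38 members rose and 0 fell (5.36% of all genes were called, 2.91% higher and 2.44% lower), with a median log2 fold change of 0.13 against 0.001. These 4 were the collagen prolyl hydroxylase gene P4ha2, Ndrg1, the mitophagy receptor gene Bnip3l and the phosphofructokinase gene Pfkp, and each of them had also risen in MYBup. The other 11 rises in MYBup were not called in lung3, whereas both comparisons called nothing for 22 members. Calls use edgeR's quasi-likelihood test with an adjusted p under 0.05, and because separate cultures are not stated for the replicates, the p-values measure only the spread between these libraries.

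**Figure D1:**
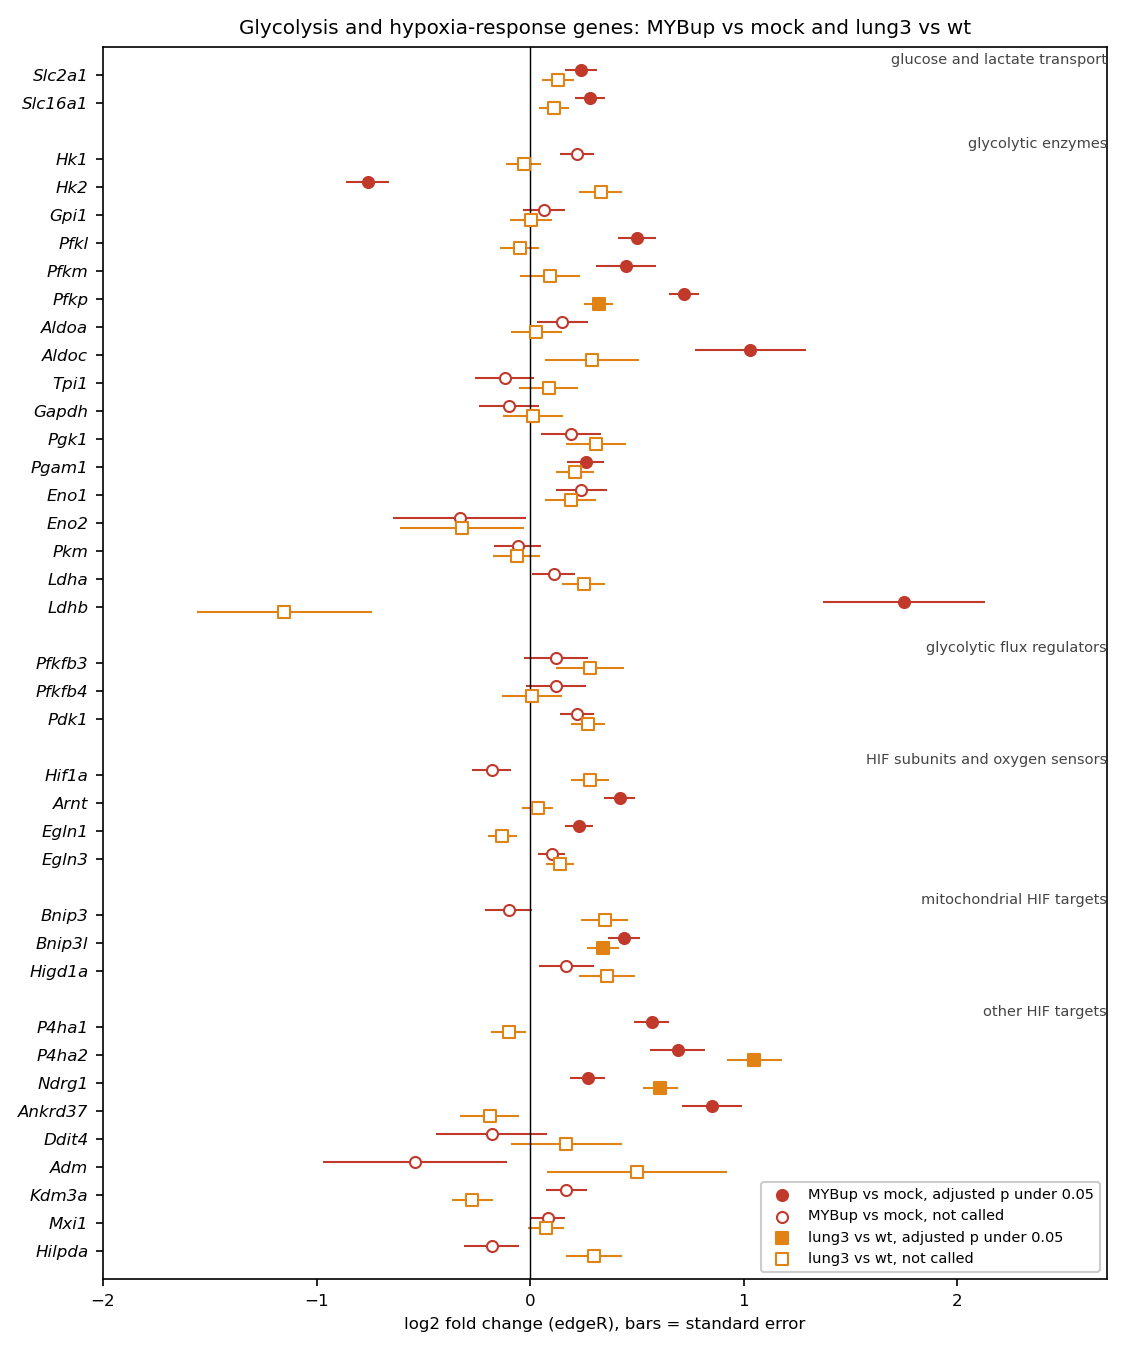
Log2 fold change (x axis, edgeR) with its standard error for the 38 tested members, ordered by role, in MYBup against mock (circles) and lung3 against wt (squares); filled symbols have an adjusted p under 0.05. The 16 filled circles include Hk2 at -0.76 on the left, and the 4 filled squares are Pfkp, Bnip3l, P4ha2 and Ndrg1.

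Of the 4 transporter genes, Slc2a1 and Slc16a1 passed the filter on low counts and Slc2a3 and Slc16a3 did not. Slc2a1, the gene of the glucose transporter GLUT1, stood at 150, 144 and 155 CPM in mock replicates 1 to 3 and at 169, 179 and 184 in MYBup. The MYBup libraries all lay above the mock libraries, and the rise was 1.18-fold (log2 fold change 0.24, SE 0.075, adjusted p = 0.0284). In wt the values were 145, 134 and 129 CPM and in lung3 161, 142 and 144, which overlap (adjusted p = 0.337). Slc2a3, the gene of the high-affinity transporter GLUT3, had 1 count in the 12 libraries together. Slc16a1, the gene of the lactate and pyruvate carrier MCT1, was at 256, 271 and 267 CPM in mock, 316, 317 and 330 in MYBup, 382, 407 and 415 in wt and 402, 467 and 428 in lung3. Each MYBup library thus lay above every mock library and below every wt library, with log2 fold changes of 0.28 against mock (adjusted p = 0.0116) and -0.32 against wt (adjusted p = 0.0036). Slc16a3, which encodes the hypoxia-inducible lactate exporter MCT4, had 1 count in all, in lung3 replicate 3. The rise of Slc2a1 was lost without mock replicate 1 or 2 or MYBup replicate 2 or 3 and that of Slc16a1 without mock replicate 1 or MYBup replicate 3, with adjusted p up to 0.108 and 0.0578. Both calls also ended with the replicate number as a block, and that of Slc2a1 without the low-count filter.

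Hexokinase traps glucose inside the cell as glucose 6-phosphate, and of Hk1 and Hk2 the second fell in MYBup cells. Hk2, the inducible hexokinase gene (chromosome 6, 82725025 to 82774454, GRCm38), was at 189, 158 and 142 CPM in mock and at 90.0, 97.3 and 102 in MYBup. The groups did not overlap, and the level fell to 0.591 of that in mock (log2 fold change -0.76, SE 0.10, adjusted p = 0.00018), a call kept under 12 of 12 alternatives of scaling, filter, model and left-out library. In wt cells Hk2 was at 131, 128 and 127 CPM and in lung3 at 168, 174 and 143, every lung3 library being higher (log2 fold change 0.33, adjusted p = 0.0816, and 0.00356 with the replicate number as a block). The order of the group means was thus mock, lung3, wt and MYBup, with mock and lung3 overlapping. Hk1, the widely expressed hexokinase gene, had log2 fold changes of 0.22 in MYBup (adjusted p = 0.0592) and -0.03 in lung3 (adjusted p = 0.88). The log2 ratio of Hk2 to Hk1 counts within a library was -1.33, -1.28 and -1.20 in MYBup and -0.16, -0.27 and -0.47 in mock, a difference of -0.97 (exact permutation test, two-sided, p = 0.1, the smallest possible with 3 against 3 libraries). Between lung3 and wt the ratio differed by 0.36, with overlapping groups (exact permutation p = 0.2). Per kilobase of exons, Hk1 stood at 27.3 ± 0.633 and Hk2 at 16.2 ± 1.03 CPM in MYBup, against 23.4 ± 1.22 and 27.3 ± 3.97 in mock.

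Phosphofructokinase commits sugar to glycolysis, and all 3 of its subunit genes rose in MYBup cells. Pfkl, the liver-type subunit and the most abundant of them per length in each group, went from 426, 425 and 401 CPM in mock to 608, 569 and 595 in MYBup (log2 fold change 0.50, SE 0.091, adjusted p = 0.00145). Its values in wt, 486, 444 and 403, and in lung3, 478, 380 and 431, overlapped (adjusted p = 0.818). Pfkm, the muscle-type subunit, was at 27.6, 27.2 and 23.1 CPM in mock and 39.3, 34.8 and 32.5 in MYBup (log2 fold change 0.45, adjusted p = 0.0272), a call that ended without mock replicate 3 or MYBup replicate 1 or 2 (adjusted p up to 0.0899). Pfkp, the platelet-type subunit, was at 66.6, 66.7 and 62.3 CPM in mock, 113, 104 and 105 in MYBup, 113, 115 and 104 in wt and 141, 138 and 136 in lung3. Mock was the low group and lung3 the high one, while MYBup and wt overlapped. The rise was 1.65-fold in MYBup over mock (log2 fold change 0.72, SE 0.07, adjusted p = 1.53e-05) and 1.25-fold in lung3 over wt (0.32, SE 0.069, adjusted p = 0.0168). The second call ended without wt replicate 1 or 3 or lung3 replicate 1 or 2, with adjusted p up to 0.0592. Exons of Pfkp share 748 bases with Pitrm1 on the opposite strand, 5.6% of its exonic length, and whether the counting used strand is not given in the sources used here. Other members also overlap annotated genes, among them Pfkm (10.2% of its exonic length) and Pkm (15.3%), both with a gene on the same strand.

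**Figure D2:**
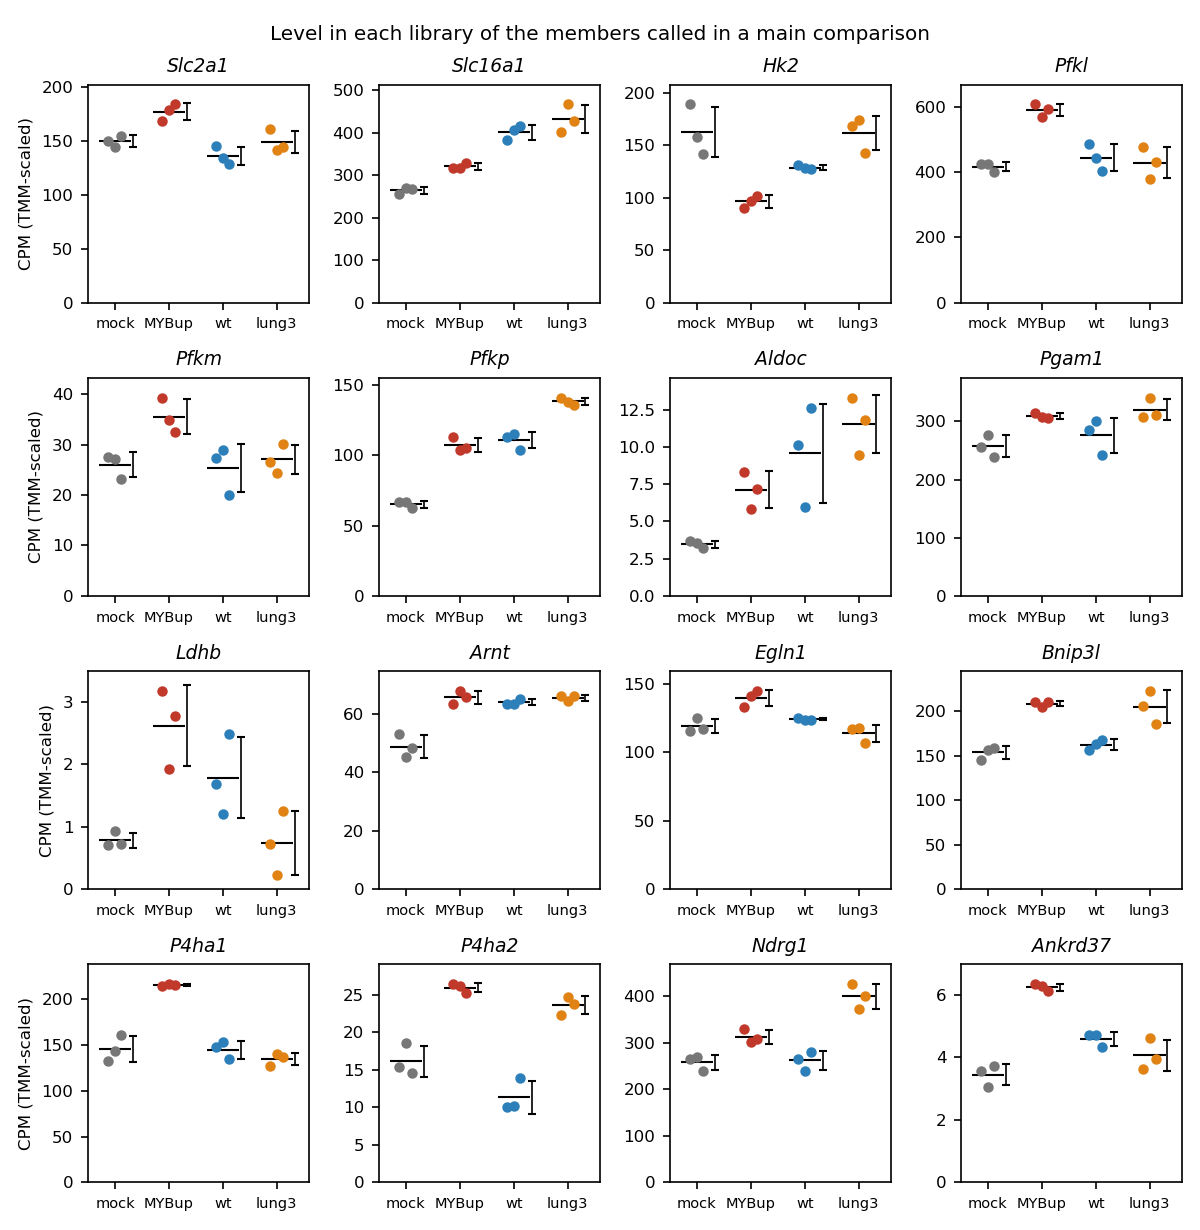
Level in CPM (y axis, from 0) of the 16 members called in MYBup against mock, in each of the 12 libraries; points are libraries, horizontal lines are group means and bars are SD with n = 3. Hk2 is lowest in MYBup, whereas P4ha1 and Ankrd37 are highest there, and P4ha2 is higher in MYBup and lung3 than in mock and wt.

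The abundant enzymes of the pathway did not pass the test in either comparison, though Pgk1 (adjusted p = 0.00471) and Ldha (adjusted p = 0.0192) were called higher in lung3 with the replicate block. Aldoa, Tpi1, Gapdh, Pgk1, Eno1, Pkm, Ldha and the upper-pathway isomerase gene Gpi1, the main isoforms of their steps, had log2 fold changes between -0.12 and 0.24 in MYBup and between -0.064 and 0.31 in lung3. Pkm, the pyruvate kinase gene, was the member with the highest level per length in mock, MYBup and wt, at 949 ± 105, 912 ± 76.1 and 845 ± 78.4 CPM per kilobase. In lung3 Ldha, the lactate dehydrogenase subunit that favours lactate formation, had 902 ± 56.0 and Pkm 808 ± 56.2. Pgam1, the phosphoglycerate mutase gene, was at 256, 277 and 239 CPM in mock and 315, 307 and 306 in MYBup (log2 fold change 0.26, adjusted p = 0.0391). That call ended under 8 of 12 alternatives, among them leaving out mock replicate 1 or 3 or any MYBup library (adjusted p up to 0.117). The annotation holds 71 other genes with transcripts at least 95% identical to that of Gapdh over at least 50% of its length, and Eno1b, such a copy of Eno1, had 236 ± 20.8 CPM in mock and 300 ± 12.8 in MYBup, so counts of Gapdh and Eno1 may be split between copies.

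For the summed enzyme level, libraries within mock, MYBup or wt differed by more than the line means did, and those within lung3 by slightly less. The line means ran from 14565 CPM in wt to 16447 in MYBup. In mock replicate 2 11 of the 17 enzyme genes were highest of their group and in mock replicate 3 14 of 17 were lowest. MYBup replicate 1 was highest for 14 of 17 and wt replicate 3 lowest for 14 of 17. The same counts were not made over all genes, so these patterns are not shown to be particular to the enzymes. Over the tested genes, the deviations of MYBup replicate 1 and mock replicate 2 from their group means correlated at 0.636. The 17 genes summed to 15730, 17600 and 13948 CPM in mock replicates 1 to 3, 18208, 15303 and 15829 in MYBup, 15422, 15434 and 12839 in wt and 16490, 14802 and 15094 in lung3. They made up between 1.3% and 1.84% of the counts of a library. MYBup exceeded mock by 1.04-fold and lung3 exceeded wt by 1.06-fold in this sum, and in both comparisons the groups overlapped. For Gapdh the highest mock library was 1.53 times the lowest, and the highest group mean was 1.17 times the lowest.

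**Figure D3:**
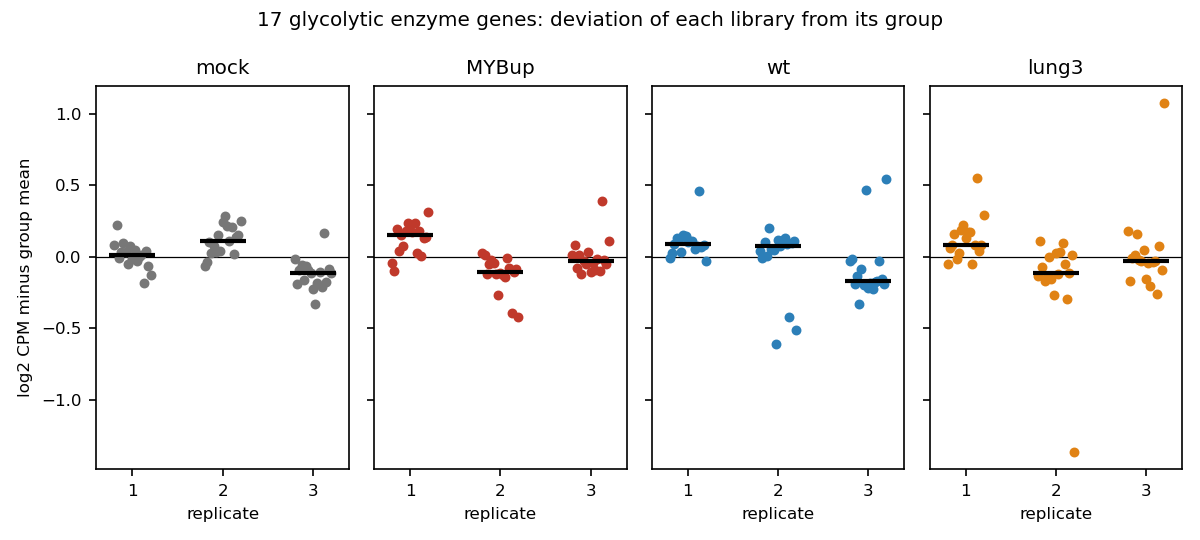
Deviation of log2 CPM from the group mean (y axis) for the 17 glycolytic enzyme genes in replicates 1 to 3 of each group (x axis); points are genes and black bars are medians over genes. The medians run from -0.11 in mock replicate 3 to 0.11 in mock replicate 2, and reach 0.15 in MYBup replicate 1 and -0.17 in wt replicate 3.

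The minor isozymes Aldoc and Ldhb varied more between lines than their main counterparts: the highest group mean was 3.32 and 3.57 times the lowest, against 1.15 for Aldoa and 1.19 for Ldha. Their libraries also differed more within a line, with the highest library up to 2.1 times the lowest for Aldoc (wt) and 5.4 times for Ldhb (lung3), against up to 1.28 for Aldoa and 1.23 for Ldha. Aldoc, a brain-type aldolase gene, had 3.65, 3.56 and 3.20 CPM in mock, 8.31, 5.84 and 7.20 in MYBup, 10.1, 5.99 and 12.6 in wt and 13.3, 9.47 and 11.8 in lung3. Mock was below all other libraries, and MYBup rose 2.04-fold over it (log2 fold change 1.03, SE 0.26, adjusted p = 0.00968), while lung3 and wt overlapped (adjusted p = 0.509). Ldhb, the lactate dehydrogenase subunit more often linked to lactate use, had 39 counts over the mock libraries and 117 over MYBup, at 0.712, 0.927 and 0.719 CPM against 3.18, 1.92 and 2.77. That was a 3.35-fold rise (log2 fold change 1.75, SE 0.38, adjusted p = 0.00456), the largest among the members. In wt Ldhb was at 1.68, 1.20 and 2.49 CPM and in lung3 at 0.728, 0.231 and 1.25, groups that overlapped by 1 library each (log2 fold change -1.15, adjusted p = 0.124, and 0.0137 with the replicate block). Eno2, the neuronal enolase gene, was between 1.18 and 3.50 CPM in all libraries and was not called. Per kilobase of exons, Ldhb in MYBup was at 1.67 ± 0.408 CPM beside 826 ± 70.3 for Ldha, so Ldha made up nearly all lactate dehydrogenase transcript in that group. The log2 ratio of Ldhb to Ldha differed by 1.61 between MYBup and mock, and that of Aldoc to Aldoa by 0.88, with groups apart in both (exact permutation p = 0.1 each, the smallest possible). The flux regulators Pfkfb3 and Pfkfb4, which set the level of a phosphofructokinase activator, and Pdk1, which limits pyruvate entry into mitochondria, were not called in either comparison; Pdk1 had log2 fold changes of 0.22 (adjusted p = 0.0538) and 0.27 (adjusted p = 0.0634, and 0.0135 with the replicate block).

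**Figure D4:**
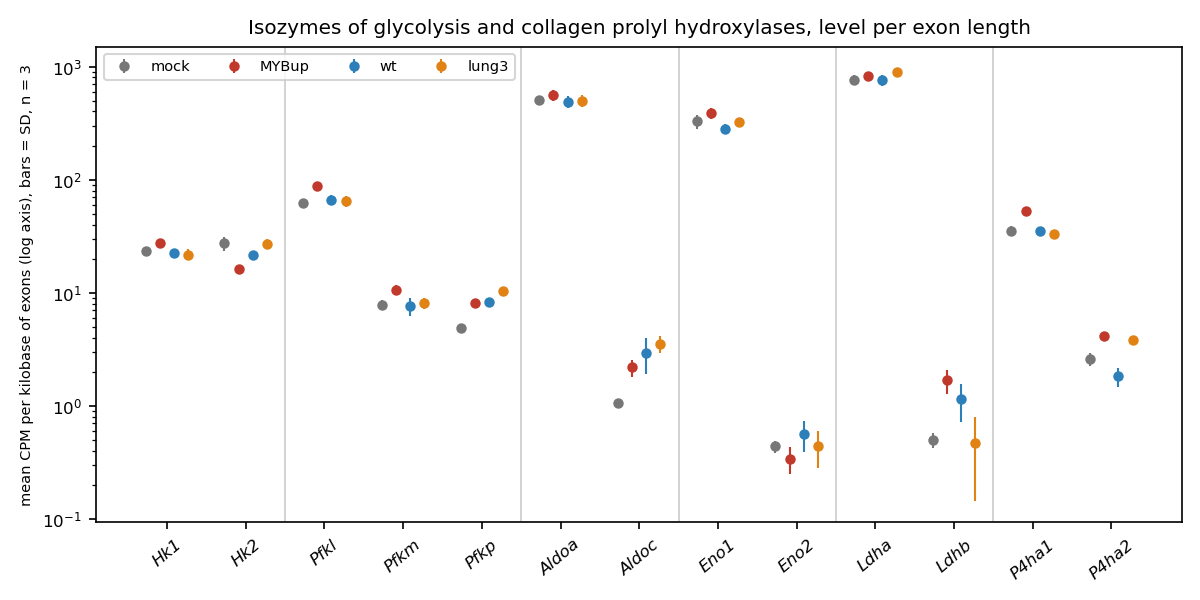
Mean CPM per kilobase of exons (y axis, log scale) with SD (n = 3) for isozymes of glycolysis and for the collagen prolyl hydroxylase subunits in the 4 groups. Hk1 and Hk2 lie close together, with Hk2 lowest in MYBup, whereas Aldoc, Eno2 and Ldhb lie far below Aldoa, Eno1 and Ldha in every group.

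Among the HIF subunits, the partner gene Arnt rose in MYBup, and the alpha subunit gene Hif1a passed the test in neither main comparison. Hif1a was at 437, 354 and 398 CPM in mock, 322, 363 and 366 in MYBup, 320, 326 and 328 in wt and 383, 431 and 367 in lung3. MYBup and mock overlapped (log2 fold change -0.18, adjusted p = 0.157), and every lung3 library was above every wt library without passing the test (0.28, adjusted p = 0.0927, and 0.0108 with the replicate block). Arnt was at 52.9, 45.3 and 48.1 CPM in mock and 63.3, 67.8 and 65.6 in MYBup (log2 fold change 0.42, SE 0.073, adjusted p = 0.000911). In wt it was at 63.3, 63.3 and 65.1 and in lung3 at 66.0, 64.3 and 66.1, so mock was the line with the low level. Epas1, which encodes the other main alpha subunit, HIF-2 alpha, had 2 counts in the 12 libraries together. Of the oxygen sensors, Egln1 rose from 116, 125 and 117 CPM in mock to 133, 141 and 145 in MYBup (log2 fold change 0.23, adjusted p = 0.0235), a call that ended under 7 of 12 alternatives, among them without mock replicate 1 or 3 or MYBup replicate 2 or 3 (adjusted p up to 0.098). Egln3, the most strongly hypoxia-inducible of them, did not pass in either comparison but separated the plasmid lines from the others. It was between 153 and 175 CPM in mock and MYBup and between 88.8 and 103 in wt and lung3, with log2 fold changes against wt of 0.79 in mock (adjusted p = 3.5e-06) and 0.88 in MYBup (adjusted p = 1.2e-06).

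The HIF target genes held 3 of the 4 members that rose in both comparisons. P4ha2, a catalytic subunit of the enzyme that hydroxylates collagen proline (chromosome 11, 54100095 to 54131665), was at 15.3, 18.5 and 14.5 CPM in mock, 26.4, 26.2 and 25.2 in MYBup, 10, 10.2 and 13.9 in wt and 22.3, 24.7 and 23.7 in lung3. MYBup and lung3 lay above both reference groups, by 1.61-fold over mock (log2 fold change 0.69, SE 0.13, adjusted p = 0.00146) and 2.07-fold over wt (1.05, SE 0.13, adjusted p = 0.00066). Both calls were kept under 12 of 12 alternatives. Its paralogue P4ha1 was at 132, 143 and 161 CPM in mock and 214, 216 and 215 in MYBup, but at 147, 153 and 134 in wt and 127, 140 and 137 in lung3. Only the MYBup libraries stood apart (log2 fold change 0.57, SE 0.082, adjusted p = 0.000286), and lung3 was not called (-0.10, adjusted p = 0.515). The log2 ratio of P4ha2 to P4ha1 was therefore higher in lung3 than in wt, by 1.17 with groups apart (exact permutation p = 0.1, the smallest possible), and differed by 0.13 between MYBup and mock with overlapping groups (exact permutation p = 0.7).

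Ndrg1, a stress-response gene, was at 265, 270 and 240 CPM in mock, 329, 301 and 308 in MYBup, 266, 239 and 281 in wt and 426, 373 and 401 in lung3. Lung3 was the high group, 1.53-fold over wt (log2 fold change 0.61, SE 0.082, adjusted p = 0.00115), and the smaller rise in MYBup (0.27, adjusted p = 0.0257) ended without mock replicate 1 or 3 or MYBup replicate 1 or 3 (adjusted p up to 0.091). The rise of Ndrg1 in MYBup was also not called with the replicate block. Bnip3l, which marks mitochondria for degradation, was at 145, 157 and 159 CPM in mock, 210, 205 and 210 in MYBup, 156, 163 and 168 in wt and 206, 223 and 186 in lung3. The mock and wt libraries overlapped, as did those of MYBup and lung3, and the rises had log2 fold changes of 0.44 (adjusted p = 0.000899) and 0.34 (adjusted p = 0.0202). The second ended without wt replicate 1 or 2 or lung3 replicate 1 or 2 (adjusted p up to 0.107). Its relative Bnip3 was not called (-0.10 and 0.35), nor was Higd1a, a small mitochondrial protein gene (0.17 and 0.36), but with the replicate block both were called in lung3 (adjusted p = 0.0204 and 0.00244). Antisense genes overlap 22.3% of the exonic length of Bnip3 and 22.5% of that of Higd1a. Ankrd37, an ankyrin repeat gene, was at 3.56, 3.07 and 3.73 CPM in mock, 6.35, 6.28 and 6.13 in MYBup, 4.73, 4.71 and 4.32 in wt and 3.64, 4.62 and 3.95 in lung3. The MYBup libraries were above all others (log2 fold change 0.85, SE 0.14, adjusted p = 0.000784), while lung3 was not called (-0.19, adjusted p = 0.508); 22.7% of its exonic length overlaps Lrp2bp on the opposite strand. Ddit4, an inhibitor of mTORC1, the adrenomedullin gene Adm, the histone demethylase gene Kdm3a, the MYC antagonist gene Mxi1 and the lipid droplet gene Hilpda were not called in either comparison, with log2 fold changes between -0.54 and 0.50. With the replicate block Kdm3a was called lower in lung3 (adjusted p = 0.0193).

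HIF binds DNA at hypoxia response elements, whose core is ACGTG or GCGTG. To show what precedes members that moved in different ways, the 250 bases before the RefSeq start (GRCm38.p6) are printed 5′ to 3′ on the gene's strand, with each match to either core, on either strand, in capitals. P4ha2 and Pfkp rose in both comparisons, P4ha1 and Ankrd37 in MYBup, Hk2 fell in MYBup and Ldha was not called.
P4ha2, chr11:54100674-54100923, plus strand: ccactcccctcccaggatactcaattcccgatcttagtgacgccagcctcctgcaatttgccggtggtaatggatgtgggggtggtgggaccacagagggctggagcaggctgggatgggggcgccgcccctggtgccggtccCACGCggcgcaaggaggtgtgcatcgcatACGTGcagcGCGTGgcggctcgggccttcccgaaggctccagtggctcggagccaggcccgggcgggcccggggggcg
Pfkp, chr13:6648772-6649021, minus strand: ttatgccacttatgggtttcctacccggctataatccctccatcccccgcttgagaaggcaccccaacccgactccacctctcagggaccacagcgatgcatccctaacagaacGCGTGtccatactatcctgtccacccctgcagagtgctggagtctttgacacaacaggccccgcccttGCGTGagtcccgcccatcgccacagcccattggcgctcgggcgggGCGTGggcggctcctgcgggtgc
P4ha1, chr10:59323046-59323295, plus strand: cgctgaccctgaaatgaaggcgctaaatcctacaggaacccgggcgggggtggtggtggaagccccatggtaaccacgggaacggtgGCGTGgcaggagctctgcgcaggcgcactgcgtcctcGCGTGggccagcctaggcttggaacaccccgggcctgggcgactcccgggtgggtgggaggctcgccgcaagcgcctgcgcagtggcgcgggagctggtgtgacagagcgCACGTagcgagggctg
Ankrd37, chr8:45999851-46000100, minus strand: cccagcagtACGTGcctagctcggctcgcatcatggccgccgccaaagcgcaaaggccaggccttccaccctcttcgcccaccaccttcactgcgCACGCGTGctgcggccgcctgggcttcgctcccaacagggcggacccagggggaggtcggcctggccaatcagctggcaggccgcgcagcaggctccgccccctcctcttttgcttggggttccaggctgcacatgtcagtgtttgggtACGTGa
Hk2, chr6:82774455-82774704, minus strand: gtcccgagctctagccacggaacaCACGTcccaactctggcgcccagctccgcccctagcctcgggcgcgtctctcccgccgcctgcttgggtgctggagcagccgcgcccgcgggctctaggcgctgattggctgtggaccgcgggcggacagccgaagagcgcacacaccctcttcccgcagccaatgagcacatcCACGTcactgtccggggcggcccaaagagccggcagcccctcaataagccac
Ldha, chr7:46845554-46845803, plus strand: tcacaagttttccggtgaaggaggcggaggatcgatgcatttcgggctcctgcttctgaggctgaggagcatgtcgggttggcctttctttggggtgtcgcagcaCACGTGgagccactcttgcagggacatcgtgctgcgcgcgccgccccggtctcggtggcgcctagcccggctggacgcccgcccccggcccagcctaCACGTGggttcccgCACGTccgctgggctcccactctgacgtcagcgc

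Counting overlapping matches as 1 site, P4ha2, Pfkp, P4ha1, Ankrd37 and Ldha had 3 sites each in these windows and Hk2 had 2. The printed windows are thus not typical, since 3 or more sites were in 16.4% of the members' windows and in 9.04% of those of tested genes. A second RefSeq start of Ldha has a window with 1 site, and among other members called in MYBup the windows of Pfkl, Aldoc, Arnt and Ldhb hold 1 site each. Those of Slc2a1 and Egln1 hold 2 sites, those of Slc16a1 and Pgam1 hold 3, and those of Pfkm between 0 and 2. The palindrome CACGTG, present in the Ldha window, holds ACGTG on both strands and counts as 1 site. Windows were found for 37 of 41 members, 55 windows in all since some genes have several starts, and 43 of them (78.2%) held a core. Bnip3l and Ndrg1, which rose in both comparisons, had no window, nor had Slc2a3 and Epas1. Among the 11401 windows of tested genes 57% held one, and among all 32851 windows 38.6% did. A binding sequence of c-Myb, AACNG on either strand, was in 65.5% of the members' windows and in 71.6% of those of tested genes. A match is a run of letters and does not show binding.

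With the replicate number as a block, more members were called in lung3. Same-numbered lung3 and wt libraries deviated together over the tested genes, with correlations of 0.329, 0.294 and 0.309, although the labels state no pairing. Correlations of this size also occurred between libraries of different number, at 0.636 for MYBup replicate 1 with mock replicate 2, so they do not establish a pairing. In that fit 12 members rose and 2 fell of 38 tested, 36.8% called against 17.9% of all genes (8.67% higher and 9.24% lower). The 4 named above stayed higher, and Hk2, Pgk1, Pgam1, Ldha, Pdk1, Hif1a, Bnip3 and Higd1a joined them, with log2 fold changes between 0.22 and 0.36 and adjusted p between 0.00244 and 0.036. Ldhb (log2 fold change -1.25, adjusted p = 0.0137) and Kdm3a (-0.28, adjusted p = 0.0193) fell. Thus Pgk1, an ATP-generating enzyme gene, was called higher at 1237, 1126 and 952 CPM in lung3 beside 957, 965 and 760 in the wt libraries of the same number. Without the block these 10 additional members did not pass.

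A test of the difference between the 2 effects called 10 of 38 members (26.3%, against 19.9% of all genes, 10.4% with the higher effect in MYBup and 9.52% in lung3), 8 with the higher effect in MYBup and 2 with the higher effect in lung3. The 2 comparisons share no library. Ldhb (difference of log2 fold changes 2.89, adjusted p = 0.00325), Ankrd37 (1.04, 0.00343), P4ha1 (0.67, 0.00163), Pfkl (0.55, 0.00981) and Pfkp (0.40, 0.0118) had the higher effect in MYBup and were called in each of the 17 such alternatives run. Kdm3a (0.45), Arnt (0.39) and Egln1 (0.35) were also among the 8, but each lost the call when 1 library was left out, with adjusted p up to 0.0848, 0.0505 and 0.0597. The calls ended without MYBup replicate 2 for Kdm3a and Arnt and without MYBup replicate 3 for Kdm3a and Egln1, and for Kdm3a also without wt replicate 1 or 2 or lung3 replicate 1. Hk2 had the higher effect in lung3 (-1.09, SE 0.15, adjusted p = 0.000291), as did Hif1a (-0.46, adjusted p = 0.023), whose call ended without mock replicate 1, wt replicate 1 or lung3 replicate 2 (adjusted p up to 0.0627). The replicate block also ended the calls of Hif1a (adjusted p = 0.056), Arnt (0.0534) and Kdm3a (0.0661). For P4ha2 (-0.36, adjusted p = 0.185), Ndrg1 (-0.34, adjusted p = 0.0588) and Bnip3l (0.10, adjusted p = 0.528) a difference between the effects was not detected.

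The mock line itself differed from untransfected cells. Of 38 members 7 were higher and 6 lower in mock than in wt (34.2% called, against 35.9% of all genes, 18% higher and 17.9% lower), and 13 were higher and 2 lower in MYBup than in wt (39.5%, against 38.2% of all genes, 19.4% higher and 18.7% lower). These comparisons share the wt libraries with each other and with lung3 against wt. The first also shares the mock libraries with MYBup against mock, and the second shares the MYBup libraries with it. Their calls are thus not independent of the main comparisons. A low level in the mock libraries raises MYBup against mock and lowers mock against wt, so opposite signs there are not separate evidence. Of the members described above, Slc2a1, Pfkl, Pfkm, Bnip3l, P4ha1, P4ha2, Ndrg1 and Ankrd37 were higher in MYBup than in wt, while Pfkp, Aldoc, Ldhb, Arnt, Pgam1 and Egln1 were not called there. Mock was lower than wt for Pfkp, Aldoc, Ldhb and Arnt, with log2 fold changes of -0.76, -1.45, -1.18 and -0.39. It was also lower for Ankrd37 (-0.41), a call that ended under 8 of 12 alternatives. Mock was higher than wt for Egln3 (0.79), P4ha2 (0.50), Hilpda (0.50), Bnip3 (0.46), Hif1a (0.29) and Mxi1 (0.29). The calls of Hif1a and Mxi1 ended when certain single libraries were left out (adjusted p up to 0.108 and 0.061). Slc16a1 was lower in both plasmid lines than in wt, by -0.60 in mock (adjusted p = 5.56e-05). Hk2 was higher in mock than in wt (log2 fold change 0.34, adjusted p = 0.019) and lower in MYBup than in wt (-0.41, adjusted p = 0.00696). The first of these ended without mock replicate 1 or wt replicate 2 or 3 (adjusted p up to 0.0987), and the lower level of Ldhb in mock ended without mock replicate 1 or 3 or wt replicate 1 or 3 (up to 0.109). Against wt, the rise of Ndrg1 in MYBup ended without MYBup replicate 1 or 3 or wt replicate 1 or 2 (up to 0.116), and that of Ankrd37 without any one MYBup library or wt replicate 3 (up to 0.0549). Eno1 (0.47, adjusted p = 0.0067) and Hk1 (0.30, adjusted p = 0.0107) were higher in MYBup than in wt without being called against mock.

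Lists of other genes of these pathways were counted whole, with the genes that did not move. The lists were chosen with earlier results of these data known, so their shares are descriptive. Of 33 other reported HIF targets 29 were tested, and 11 rose and 6 fell in MYBup (58.6% called, against 26.9% of all genes), while 8 rose and 0 fell in lung3 (27.6%, against 5.36%). Car9, a membrane enzyme that regulates pH, rose in both, from 21.2 ± 0.716 to 125 ± 5.18 CPM in MYBup and from 19.2 ± 10.3 to 51.8 ± 5.59 in lung3. The transcriptional repressor gene Bhlhe40 was at 82.9, 88.3 and 59.0 CPM in mock, 46.6, 46.1 and 44.5 in MYBup, 80.7, 75.9 and 103 in wt and 136, 132 and 138 in lung3, so it fell in MYBup (log2 fold change -0.75, adjusted p = 0.00164) and rose in lung3 (0.65, adjusted p = 0.0143). The difference of these effects was -1.40 (adjusted p = 0.000382). The carbonic anhydrase gene Car12 (2.00) and the secreted glycoprotein gene Stc2 (2.33) rose in MYBup (log2 fold changes). Of 12 tested genes of pyruvate entry into mitochondria 5 rose and 2 fell in MYBup (58.3% called) and 0 passed in lung3. Pcx, the pyruvate carboxylase gene, had the largest rise, from 2.68 ± 0.464 to 7.92 CPM (log2 fold change 1.55, adjusted p = 6.31e-05), and Pdk3, a kinase that inhibits pyruvate dehydrogenase, the larger fall, from 104 ± 9.77 to 51.6 CPM (-1.02, adjusted p = 1.58e-05). Of 9 tested further isoforms of glycolysis 1 rose and 2 fell in MYBup (33.3% called), with the muscle enolase gene Eno3 down from 207 ± 41 to 88.9 CPM (-1.22, adjusted p = 0.000245). Among 13 tested genes of oxygen sensing 2 rose in MYBup, Cited2 (0.46) and Os9 (0.33), and of 8 pentose phosphate genes Tkt rose (0.28) and Rpia fell (-0.79). These shares, 15.4% and 25%, were below that of all genes. Slc2a8, a further glucose transporter gene and the isoform that rose, went from 2.3 to 3.87 CPM (log2 fold change 0.76, adjusted p = 0.0118). In lung3 none of the genes of these isoform and oxygen-sensing lists passed (0 of 9 and 0 of 13), and Pgls, of the pentose phosphate pathway, fell (-0.83, adjusted p = 0.0316).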

How the data were processed

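Whole-gene counts of RNA-seq reads were deposited by the authors as 1 table, with values over 4 digits rounded to 4 significant digits (2708 values). The aligner STAR, the package edgeR and the build GRCm38 appear in the submitters' processing notes. How reads were assigned to genes, by which annotation and with or without strand, is not given in the sources used here. RNA was isolated with an RNeasy Plus kit and libraries made with a TruSeq kit, per the labels' protocols.

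Groups were taken from the labels, 3 libraries each. Genes passing edgeR's filterByExpr (11291) were tested in 1 fit of all 12 libraries with edgeR 4.0.16 (R 4.3.3; TMM factors, quasi-likelihood test) and Benjamini-Hochberg adjustment over all of them, at 0.05. The standard error of a log2 fold change was derived from it and the F statistic. Levels per kilobase use exon lengths of GENCODE on GRCm38, and promoter windows and their coordinates are from RefSeq (GRCm38.p6). Isoform ratios were compared with exact permutation tests (scipy 1.17.1). Members and lists were chosen with earlier results of these data known. Members called in either main comparison are named with each library's value, and of other lists up to 4 called genes per direction with the largest change. Marker lists held 8 epithelial, 9 leukocyte and 10 lung and stromal genes.

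Same-numbered lung3 and wt libraries had deviations from their group means correlated at 0.329, 0.294 and 0.309 over the tested genes. Those of different number correlated between -0.212 and -0.093. Deviations from a group mean cancel out within the group, so these negative values follow from the positive ones and are not further evidence. The positive correlations are a pattern in the data that no label states. The main test was kept without the block. The blocked value is given where it changes a call in lung3 against wt or in the difference of effects. For MYBup against mock, the members whose call the block ended are named. Same-numbered MYBup and mock libraries did not correlate throughout (-0.191, -0.496 and 0.382). MYBup replicate 1 with mock replicate 2 reached 0.636 and MYBup replicate 2 with mock replicate 3 reached 0.406, so such correlations do not by themselves show pairing. Tested on simulated data for MYBup against mock (11191 genes), the procedure found 58.2% of the genes changed 1.5-fold, 86.6% of those changed 2-fold and 98.4% of those changed 4-fold, and 5.88% of its calls were false. The simulation changed a small set of genes, in MYBup only, with noise independent between libraries, whereas 3038 genes were called in the data. These shares hold for that setting. Changes below 1.5-fold, as most rises of members were, were not simulated. Alternatives were RLE scaling, no filter, fits of the compared groups only, a replicate block, DESeq2 1.42.0, limma voom 3.58.1, calls of at least 2-fold only, and fits with 1 library removed.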

Additional observations from a re-analysis of the deposited data

How the results depend on the processing

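With the replicate number as a block, 10 members were called in MYBup against mock, against 16, and 14 in lung3 against wt, against 4. The labels state no pairing for either comparison. DESeq2 called 7 in lung3 against wt. A minimum of 2-fold left 2 in MYBup against mock, 1 in lung3 against wt, 2 in mock against wt, 1 in MYBup against wt and 3 for the difference of effects, of 38 members each. Of all genes it left 5.43%, 1.45%, 5.64%, 6.42% and 6.57% in the same order. Leaving out 1 library gave 11 to 17, 2 to 6, 9 to 14, 12 to 15 and 8 to 13 in the same order, and the 2 in lung3 against wt came when wt 1, lung3 1 or lung3 2 was left out. The shares of all genes called with 1 library left out were 18% to 29.7%, 2.08% to 6.02%, 27% to 35%, 28.6% to 32.3% and 13.5% to 21.9%, in that order. Over all genes, 3038 were called in MYBup against mock and 1479 with the block, 613 at 2-fold and 2046 to 3386 with 1 library left out. In lung3 against wt 605 were called, against 1985 with the block, 919 with DESeq2, 164 at 2-fold and 237 to 687 with 1 library left out. The log2 ratio of P4ha2 to P4ha1, 0.13 higher in MYBup than in mock, changed sign to -0.023 without mock replicate 3 (range -0.023 to 0.24). That of Aldoc to Aldoa, 0.29 higher in lung3 than in wt, changed sign to -0.032 without wt replicate 2 (range -0.032 to 0.62). The cause was not tested. In MYBup against mock the block ended the calls of Slc2a1, Slc16a1, Pgam1, Egln1, Ndrg1 and Arnt (for Arnt adjusted p = 0.0504, edgeR). Of 456 single-gene values in MYBup against mock 33 lost and 4 gained a call, and of 456 in lung3 against wt 8 lost and 16 gained one, with 0 called values reversed. Ldhb rested on 39 counts over mock and 30 over lung3, which limits its precision.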

Other observations

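Wt replicate 3 had the highest wt level of some low or inducible genes and the lowest of others. Car9 was at 31.1 CPM there and at 13.2 and 13.3 in the other wt libraries, P4ha2 at 13.9 against 10 and 10.2, and Ddit4 at 69.1 against 52.4 and 29.2. Aldoc was at 12.6 CPM against 10.1 and 5.99, and Ldhb at 2.49 against 1.68 and 1.20. Other HIF targets went the other way in this library. Hilpda was at 12.6 CPM against 14.3 and 14.3, Ankrd37 at 4.32 against 4.73 and 4.71, and Higd1a at 54.9 against 61 and 70.7. Mxi1, Kdm3a and Pdk1 were also at their lowest wt level there. In the same library 14 of the 17 glycolytic enzymes were at their lowest wt level.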
